A study of Mus musculus with 2 samples.

Results

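The genes described here are the secreted WNT ligands, their receptors and the secreted proteins that amplify or block them. They were taken by name from the gene list of 1 single-nucleus multiome library, as every gene named as a Wnt, Fzd, Sfrp, Dkk or Rspo family member together with Lgr4 to Lgr6, Lrp5, Lrp6 and Wif1, which gave 48 of 32293 genes. Each nucleus gave both RNA and open chromatin (ATAC). The nuclei were those of tdTomato+ stromal cells isolated by sorting at postnatal day 21, from the femurs of animals with the genotype Prrx1-cre; R26R(tdTomato/+). Prrx1-cre acts in limb mesenchyme and leaves that tissue and whatever descends from it marked by the red fluorescent protein tdTomato. The distal growth plates had been removed before the bones were dissociated. There was 1 library of each kind and no second genotype, age or treatment, so nuclei are not replicates of animals, no test was possible, and every comparison below is between classes of nuclei within that library. Intervals in brackets are 95% intervals of counting error only (exact Poisson for levels, exact Clopper-Pearson for shares).

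WNT ligands are lipid-modified secreted proteins that bind Frizzled (Fzd) receptors together with the co-receptors Lrp5 and Lrp6, which stabilises β-catenin in the receiving cell. R-spondins (Rspo) bind Lgr receptors and keep Frizzled and Lrp proteins on the cell surface, which strengthens the signal. Secreted Frizzled-related proteins (Sfrp) and Wif1 bind the ligands, and Dickkopf 1 (Dkk1) binds Lrp5 and Lrp6, so that the signal is blocked outside the cell. In bone this pathway is known for driving osteoblast formation, and sclerostin (Sost) and Dkk1, made by osteocytes, are known as its brakes.

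After filters, 2626 nuclei remained, with medians of 1778 RNA molecules (UMIs) and 28680 ATAC counts per nucleus. Clusters were made without any of the 48 genes and named from marker genes. The named stromal classes were 723 reticular-like nuclei (the Cxcl12 and Lepr stroma of the marrow), 163 osteoblast-like, 58 osteocyte-like, 45 chondrocyte-like, 74 tenocyte- or periosteum-like and 81 mural-like nuclei (the smooth muscle and pericytes of vessels), and a cluster of 213 nuclei led by Mmp9 and Limch1 in which 9 of 11 osteoblast and 5 of 12 reticular markers were detected (at least 10 UMIs and 2-fold above blood-like nuclei), called the Limch1 cluster below. The osteocyte marker Tnc was also among its leading genes. Of all lists, the hypertrophic chondrocyte markers scored highest in it (4 of 6 detected, at a summed 7988 counts per 1000000, CPM, against 8618 CPM in chondrocyte-like and 1324 CPM in blood-like nuclei). Each class had the highest summed level of its own marker list among the stromal classes, except that the tenocyte list was higher in chondrocyte-like nuclei (6990 CPM) than in tenocyte- or periosteum-like nuclei (3592 CPM). That class was present although the study's methods for marrow stromal cells include stripping the periosteum from the bone, a step which the labels of these libraries do not mention. A further 777 nuclei in 4 clusters stayed unnamed, and 17 were endothelial-like. Of the unnamed, a cluster of 193 nuclei scored highest for osteoblast markers (11 of 11 detected). Another, of 56 nuclei, scored highest for reticular markers (8 of 12 detected). Neither entered a class or the stroma that classes were compared with. The osteoblast-like and reticular-like classes therefore do not hold every nucleus with such markers. Despite the sort, 475 nuclei were blood-like, with tdTomato at 36.8 CPM against 219 to 486 CPM in the stromal classes, and these served as background beside free RNA (barcodes with 100 to 400 UMIs). The blood-like nuclei still held 15926 CPM of osteoblast markers, where osteoblast-like nuclei had 148792 CPM. Depth differed widely, with a median of 18840 UMIs per chondrocyte-like and 12010 per osteoblast-like nucleus but 1484 per reticular-like nucleus, so levels are given as CPM of counts summed over a class, and 0 UMIs allow up to 1.39 CPM in osteoblast-like, 1.95 CPM in reticular-like, 2.96 CPM in chondrocyte-like, 5.60 CPM in the Limch1, 8.52 CPM in osteocyte-like, 9.06 CPM in tenocyte- or periosteum-like and 13.03 CPM in mural-like nuclei (3 counts of each total).

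Of the 48 genes, 41 had at least 1 UMI in the named stromal classes and 25 had at least 20. The genes with none there were Dkk4, Wnt3, Wnt3a, Wnt7a, Wnt8a, Wnt8b and Wnt9b. The antisense transcript Fzd10os had 2 UMIs, which cannot be assigned with certainty since it lies opposite Fzd10. Among the 25, 23 were at least 2-fold higher in some class than in the other 6 stromal classes summed, where 56.1% of all 11100 genes with 20 UMIs were, and 10 were so in more than 1 class (16% of all genes). The exceptions were Lrp6 and Lgr4. Filtering on 20 UMIs over all classes favours genes that are high somewhere, and nothing is read from these counts alone.

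Roles were divided among the classes. Summed over all 19 ligands, RNA was highest in chondrocyte-like nuclei (435 CPM, 395 to 477) and osteocyte-like nuclei (341 CPM, 283 to 408), whose intervals overlap, and was 184 CPM in tenocyte- or periosteum-like nuclei, 177 in the Limch1 cluster, 119 in reticular-like, 99.4 in osteoblast-like and 34.8 in mural-like nuclei, against 16.8 CPM in blood-like nuclei and 62.9 CPM in free RNA. Most of the osteocyte-like sum was Wnt5b, at 304 CPM there. Classed nucleus by nucleus from its own markers, the ligand sum of chondrocyte-like nuclei was 285 CPM. R-spondins stood at 311 CPM (284 to 340) in reticular-like nuclei, 63.1 in chondrocyte-like nuclei, 57.9 in the Limch1 cluster and at 15.1 CPM or less in the other 4 classes, against 5.60 CPM in blood-like nuclei and 25.5 CPM in free RNA. The reticular-like sum was 477 CPM with free RNA subtracted. Lgr receptors were highest in osteocyte-like (261 CPM, 211 to 320) and chondrocyte-like nuclei (194 CPM, 168 to 223), and lowest in tenocyte- or periosteum-like nuclei (81.6 CPM), against 26.4 CPM in blood-like nuclei and 44.0 CPM in free RNA. Frizzled RNA was 154 CPM in tenocyte- or periosteum-like, 141 in reticular-like, 126 in mural-like and 112 in Limch1 nuclei, whose intervals all overlap, and 60.6, 59.1 and 45.4 CPM in osteoblast-like, chondrocyte-like and osteocyte-like nuclei, against 36.8 CPM in blood-like nuclei. In free RNA it was 61.2 CPM, and osteoblast-like, chondrocyte-like and osteocyte-like nuclei were not above that level. By an upper estimate, free RNA made up 20.05%, 11.9% and 16.15% of the UMIs of these classes, in that order. The level in free RNA is therefore not a floor for them. Lrp5 and Lrp6 together varied least, between 68.2 CPM in osteocyte-like and 130 CPM in both reticular-like and osteoblast-like nuclei, and the level in blood-like nuclei was as high (120 CPM). Secreted blockers were high in the Limch1 cluster (484 CPM, 426 to 546), osteocyte-like (477), reticular-like (419) and tenocyte- or periosteum-like nuclei (354), and low in osteoblast-like (104), mural-like (86.9) and chondrocyte-like nuclei (53.2 CPM), against 47.2 CPM in blood-like nuclei and 197 CPM in free RNA. The blocker sum includes Dkk3, which does not bind Lrp proteins like Dkk1 and was at 99.7 CPM in tenocyte- or periosteum-like nuclei. With nuclei classed one by one, the sum was 173 CPM for Lgr receptors in osteocyte-like nuclei. It was 80.3 CPM for Frizzled in tenocyte- or periosteum-like nuclei. In that setting the Limch1 cluster was replaced by nuclei in which osteoblast and reticular markers scored alike. These are a different set, called mixed nuclei below, and their blocker sum was 297 CPM.

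**Figure D1:**
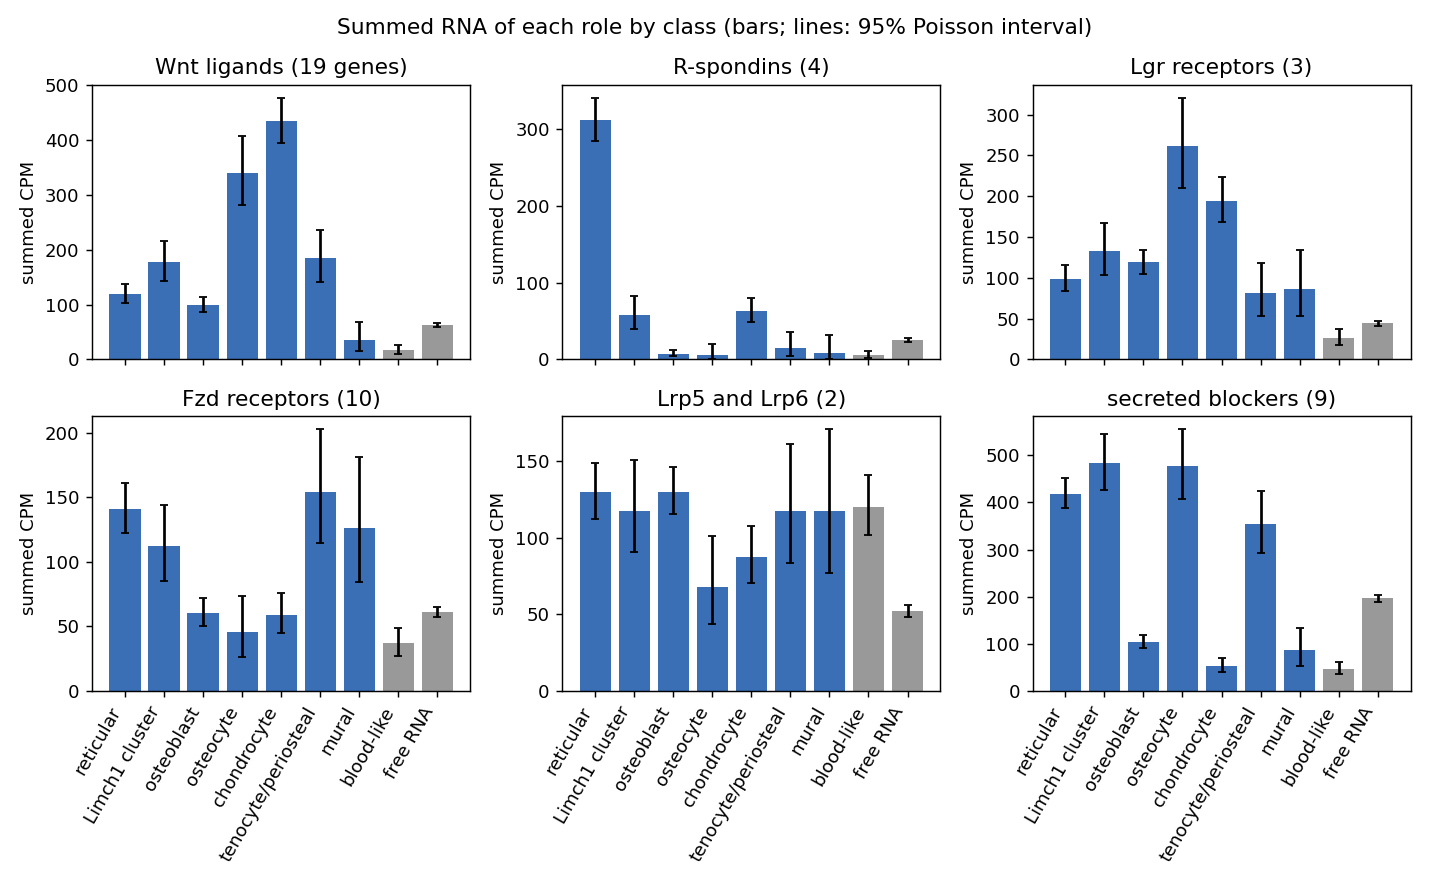
Summed RNA of each role in CPM (y axis) for each class of nuclei (x axis), with stromal classes in blue, blood-like nuclei and free RNA in grey, and lines for the 95% Poisson interval. Ligands peak in chondrocyte-like nuclei (435 CPM), R-spondins in reticular-like nuclei (311 CPM) and Lgr receptors in osteocyte-like nuclei (261 CPM), while Lrp5 and Lrp6 reach 120 CPM even in blood-like nuclei.

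The named genes are the 6 of each role with the most UMIs over the stromal classes. Among the ligands, Wnt5b, which acts mostly outside the β-catenin route in cartilage, was at 304 CPM in osteocyte-like and 216 CPM in chondrocyte-like nuclei, then 75.5 in tenocyte- or periosteum-like, 40.7 in osteoblast-like, 39.2 in Limch1, 29.8 in reticular-like and 17.4 in mural-like nuclei, with 5.60 CPM in blood-like nuclei and 17.1 CPM in free RNA. The 2 leading classes were both above the other 5. Their log2 ratios over the rest of the stroma were 2.14 (1.83 to 2.44) in osteocyte-like and 1.94 (1.68 to 2.19) in chondrocyte-like nuclei. Wnt4, a ligand made by joint and growth plate cartilage, was at 139 CPM in chondrocyte-like nuclei and 72.8 CPM in the Limch1 cluster, at 49.3 and 40.2 CPM in reticular-like and osteoblast-like nuclei, at 11.4 and 8.69 CPM in osteocyte-like and mural-like nuclei, and had 0 UMIs in tenocyte- or periosteum-like nuclei, at least 6.60-fold lower there than in the rest of the stroma. The log2 ratio of Wnt4 in chondrocyte-like nuclei was 1.79 (1.48 to 2.09), and it turned to -0.94 when each nucleus was classed on its own by markers.

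The less abundant ligands were split between the same few classes. Wnt5a, the main ligand of planar polarity signalling, was at 51.4 CPM in tenocyte- or periosteum-like nuclei and 37.4 CPM in the Limch1 cluster, against 17.7 CPM or less in the other 5. Wnt11 was at 30.6 CPM in chondrocyte-like and 19.5 CPM in reticular-like nuclei, 11.2 CPM in the Limch1 cluster and 6.04 CPM or less elsewhere, with free RNA at 10.3 CPM. Wnt10b, a bone-forming ligand of the β-catenin route, had 23 UMIs (22.7 CPM) in chondrocyte-like and 7 UMIs (21.1 CPM) in tenocyte- or periosteum-like nuclei, and 7.47 CPM or less in the others. Wnt9a, known from joint formation, had 17 UMIs in all, of which 6 (18.1 CPM) were in tenocyte- or periosteum-like nuclei. Of the other 13 ligands, 7 had between 1 and 10 UMIs in the stromal classes. Those were Wnt2 (10 UMIs), Wnt7b (8), Wnt1 (5), Wnt16 (4), Wnt2b (2), Wnt6 and Wnt10a (1 each).

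R-spondins marked the reticular-like class. Rspo3 was at 180 CPM in reticular-like nuclei, 36.5 CPM in chondrocyte-like nuclei, 31.7 CPM in the Limch1 cluster, 15.1 CPM in tenocyte- or periosteum-like, 4.62 in osteoblast-like and 4.34 in mural-like nuclei, and had 0 UMIs in osteocyte-like nuclei, with 0.801 CPM in blood-like nuclei and 13.2 CPM in free RNA. Rspo2 was at 131 CPM in reticular-like nuclei, 26.1 CPM in the Limch1 cluster, 19.7 CPM in chondrocyte-like nuclei, and 5.68 CPM or less in the other 4. The log2 ratios of reticular-like nuclei to the rest of the stroma were 3.57 (3.19 to 3.94) for Rspo3 and 3.84 (3.36 to 4.31) for Rspo2. A UMI of any R-spondin was seen in 27.9% of reticular-like nuclei (24.7 to 31.4%) and 1.05% of blood-like nuclei, whose median depths were alike (1484 and 1474 UMIs). The share was 37.8% in the far deeper chondrocyte-like nuclei, and after thinning every nucleus to 500 UMIs it was 9.96% in reticular-like, 4.44% in chondrocyte-like and 0% in blood-like nuclei (0 of 475, which the exact interval bounds at 0.774%). Both genes were seen in the same nucleus in 6.22% of reticular-like nuclei. Rspo4 had 7 UMIs, 6 of them in chondrocyte-like nuclei, and Rspo1 had 1.

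The Lgr receptors, which bind R-spondins, differed from each other. Lgr6 was at 109 CPM in chondrocyte-like and 96.6 CPM in osteocyte-like nuclei, which overlap in their intervals, and at 21.1 CPM or less in the other classes, down to 2.59 CPM in reticular-like nuclei, the class with the most R-spondin RNA. Lgr4 was broad, at 162 CPM in osteocyte-like, 116 in Limch1, 104 in osteoblast-like, 92.1 in reticular-like, 84.7 in chondrocyte-like, 82.5 in mural-like and 60.4 CPM in tenocyte- or periosteum-like nuclei, against 15.2 CPM in blood-like nuclei. Its intervals overlap between neighbours in that order. Lgr5 had 9 UMIs in the stromal classes, at most 3.89 CPM (in reticular-like nuclei), and 12 in blood-like nuclei (9.61 CPM), with 1.18 CPM in free RNA. Its stromal level was therefore not above that of blood-like nuclei, and it rests on few UMIs.

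**Figure D2:**
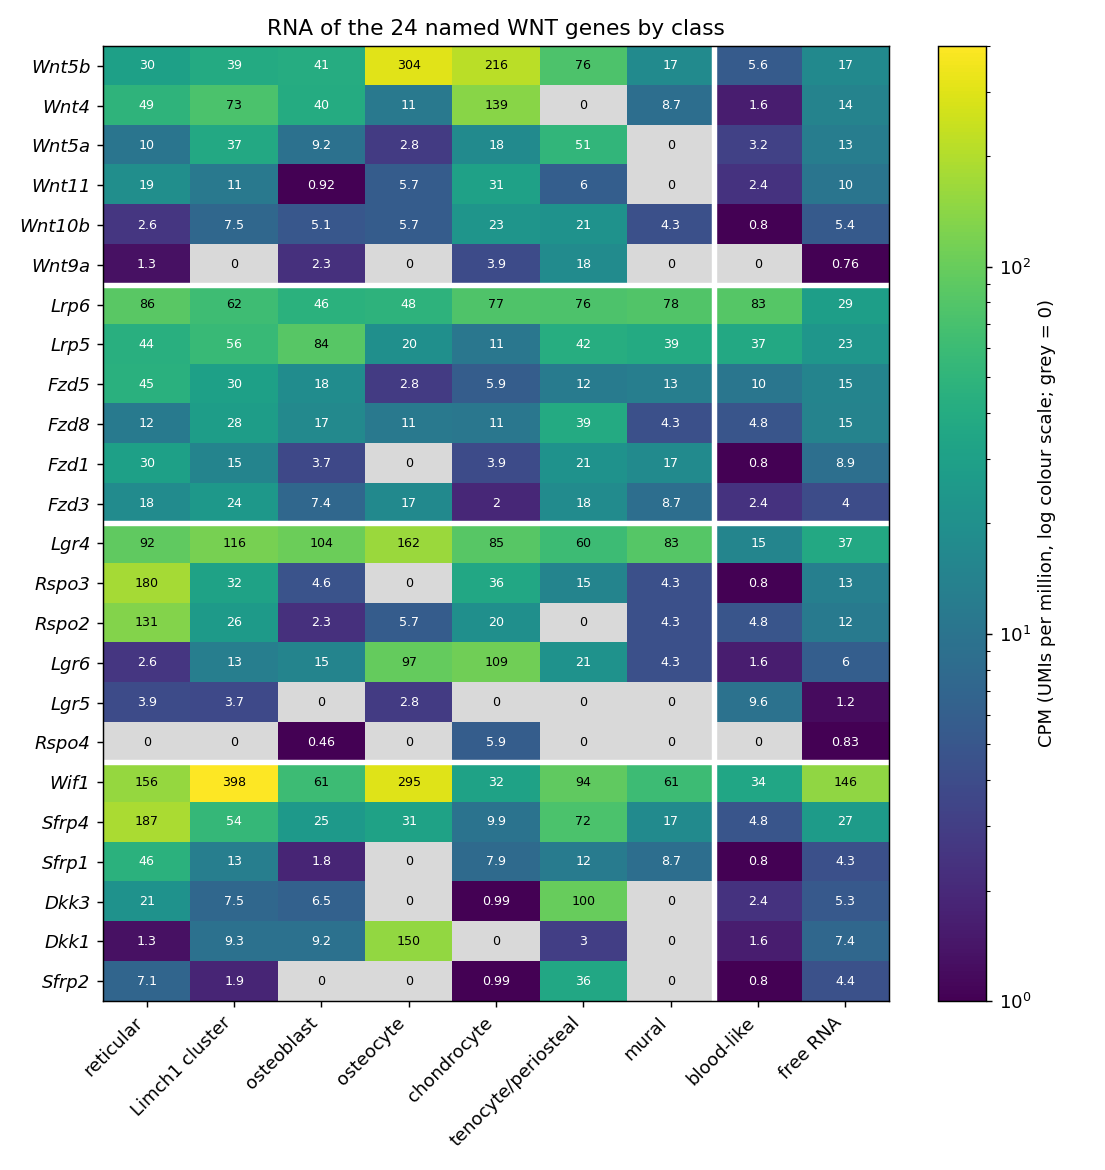
RNA level (CPM, printed in each cell, log colour scale, grey for 0 UMIs) of the 24 named genes (rows, grouped as ligands, Fzd and Lrp receptors, Lgr receptors with R-spondins, and secreted blockers) in 7 stromal classes, blood-like nuclei and free RNA (columns). Rspo3 and Rspo2 stand out in reticular-like nuclei (180 and 131 CPM), Wnt5b and Lgr6 in osteocyte-like and chondrocyte-like nuclei, and Dkk1 in osteocyte-like nuclei (150.5 CPM).

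Frizzled UMIs were few, at most 139 over the stromal classes for a single gene (Fzd5), which does not rank these genes against others. Their summed level differed more between classes than that of Lrp5 and Lrp6 together. Fzd5 was at 44.8 CPM in reticular-like and 29.9 CPM in Limch1 nuclei, 18.5 CPM in osteoblast-like nuclei and 13.03 CPM or less in the other 4, with 10.4 CPM in blood-like nuclei and 14.98 CPM in free RNA. Fzd1 was at 29.8 CPM in reticular-like nuclei, 21.1 in tenocyte- or periosteum-like, 17.4 in mural-like and 14.9 in Limch1 nuclei, 3.94 CPM or less in chondrocyte-like and osteoblast-like nuclei, and at 0 UMIs in osteocyte-like nuclei. Fzd8 was highest in tenocyte- or periosteum-like nuclei (39.3 CPM) and the Limch1 cluster (28.0 CPM), against 4.34 to 16.6 CPM in the other classes and 14.6 CPM in free RNA, and its log2 ratio of 1.48 in tenocyte- or periosteum-like nuclei turned to -0.32 when each nucleus was classed on its own. Fzd3 lay between 17.0 and 24.3 CPM in 4 classes, at 8.69 CPM in mural-like and 7.397 CPM in osteoblast-like nuclei, and at 1.97 CPM in chondrocyte-like nuclei. Of the other Frizzled genes, Fzd4 (7 UMIs, 30.4 CPM), Fzd7 (6 UMIs, 26.1 CPM) and Fzd2 (5 UMIs, 21.7 CPM) were at least 2-fold higher in mural-like nuclei. So were Fzd7 and Fzd2 in tenocyte- or periosteum-like nuclei (8 UMIs, 24.2 CPM each), Fzd4 in reticular-like nuclei (23 UMIs, 14.9 CPM) and Fzd9 in chondrocyte-like nuclei (19 UMIs, 18.7 CPM), while Fzd6 and Fzd10 had 6 and 1 UMIs.

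Of the co-receptors, Lrp5, whose activating and inactivating mutations raise and lower bone mass, was at 83.7 CPM in osteoblast-like nuclei, 56.02 in the Limch1 cluster, 44.1 in reticular-like, 42.3 in tenocyte- or periosteum-like, 39.1 in mural-like, 19.9 in osteocyte-like and 10.8 CPM in chondrocyte-like nuclei, against 36.8 CPM in blood-like nuclei. It was the 1 gene of the 25 that was at least 2-fold higher in osteoblast-like nuclei, with a log2 ratio of 1.27 (0.95 to 1.59), which was 0.57 and below 2-fold when nuclei were held to 10% mitochondrial UMIs. Lrp6 was between 46.2 CPM in osteoblast-like and 85.6 CPM in reticular-like nuclei, with 83.3 CPM in blood-like nuclei. A UMI of any Frizzled together with one of Lrp5 or Lrp6 was found in 44.4% of chondrocyte-like, 35.0% of osteoblast-like and 7.75% of reticular-like nuclei, against 3.79% of blood-like nuclei, an order that follows depth and not the summed CPM and is therefore not read as one of expression.

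Secreted blockers differed by class in kind. Wif1, the WNT inhibitory factor, was at 398 CPM in the Limch1 cluster (346 to 455) and 295 CPM in osteocyte-like nuclei (241 to 358), then 156 in reticular-like, 93.7 in tenocyte- or periosteum-like, 61.0 in osteoblast-like, 60.8 in mural-like and 31.5 CPM in chondrocyte-like nuclei, with 34.4 CPM in blood-like nuclei. Free RNA held 146.5 CPM of Wif1, close to the reticular-like level and above that of 4 stromal classes. Wif1 was seen in 40.4% of Limch1 nuclei (33.7 to 47.3%) and 8.21% of blood-like nuclei, and in 15.02% and 3.58% of them after thinning. In the Limch1 cluster osteocyte markers were summed at 4767 CPM (8 of 10 seen, Fgf23 and Fbln7 at 0), against 11167 CPM in osteocyte-like nuclei and 274 CPM in blood-like nuclei, and their part in its Wif1 level was not tested. When each nucleus was classed on its own by markers, the log2 ratio of Wif1 was -0.77 in the mixed nuclei, against 2.02 in the Limch1 cluster. The mixed nuclei are a different set, so these values do not compare the same nuclei.

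Dkk1 was at 150.5 CPM (53 UMIs) in osteocyte-like nuclei, 9.34 CPM in the Limch1 cluster and 9.25 CPM in osteoblast-like nuclei, 3.02 and 1.30 CPM in tenocyte- or periosteum-like and reticular-like nuclei, and at 0 UMIs in chondrocyte-like and mural-like nuclei, with 1.60 CPM in blood-like nuclei and 7.42 CPM in free RNA. The log2 ratio in osteocyte-like nuclei was 4.95 (4.30 to 5.61), and 22.4% of them had a UMI (12.5 to 35.3%), against 0.421% of blood-like nuclei. Sost, chosen here after its values were seen, had 8 of its 9 stromal UMIs in osteocyte-like nuclei (22.7 CPM, 9.81 to 44.8).

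Sfrp4 was at 187 CPM in reticular-like nuclei, 72.5 CPM in tenocyte- or periosteum-like nuclei, 54.1 CPM in the Limch1 cluster and 31.2 CPM or less in the others, with 27.1 CPM in free RNA. Sfrp1 was at 46.0 CPM in reticular-like nuclei, 13.1 CPM or less in the Limch1, tenocyte- or periosteum-like, mural-like, chondrocyte-like and osteoblast-like nuclei, and at 0 UMIs in osteocyte-like nuclei. Both were higher in reticular-like nuclei than in the rest of the stroma, with log2 ratios of 2.70 (2.40 to 2.99) and 3.07 (2.42 to 3.72). Dkk3, a Dickkopf relative that does not bind Lrp proteins like Dkk1, was at 99.7 CPM in tenocyte- or periosteum-like and 21.4 CPM in reticular-like nuclei and at 7.47 CPM or less elsewhere, with 0 UMIs in osteocyte-like and mural-like nuclei. Sfrp2 was at 36.2 CPM (12 UMIs) in tenocyte- or periosteum-like and 7.13 CPM (11 UMIs) in reticular-like nuclei, and had 1 UMI or none in the others. Sfrp5 had 10 of its 11 stromal UMIs in tenocyte- or periosteum-like nuclei.

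Counted over the 25 genes with at least 20 UMIs, the classes differed in how many stood 2-fold apart from the rest of the stroma. In reticular-like nuclei 9 of 25 (36.0%) were higher, where 16.6% of all genes were, and 5 were lower (11.1% of all genes). In chondrocyte-like nuclei 6 were higher (24%, against 13.6% of all genes) and 12 lower (18.6% of all genes). In osteocyte-like nuclei 4 were higher (16.0%, against 6.76%) and 13 lower (29.3% of all genes), 6 of the 13 with 0 UMIs there. In tenocyte- or periosteum-like nuclei 7 were higher (28.0%, against 10.7%) and 4 lower (18.3% of all genes). In osteoblast-like nuclei 1 was higher (4%, against 4.07%) and 14 lower (56%, against 25.8%). In the Limch1 cluster 3 were higher and 3 lower (12% each, against 7.38% and 11.1%). With each nucleus classed on its own, 17 were higher and 0 lower in the mixed nuclei that replaced that cluster. In mural-like nuclei 3 were higher (12%, against 15.1%) and 12 lower (48.0%, against 16%), 4 of the 12 with 0 UMIs there. The counting interval lay wholly on the called side of 0 for all the higher calls, and among the lower calls for 14 of 14 in osteoblast-like, 10 of 12 in chondrocyte-like, 4 of 5 in reticular-like, 3 of 4 in tenocyte- or periosteum-like, 2 of 3 in Limch1, 7 of 12 in mural-like and 6 of 13 in osteocyte-like nuclei.

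The median log2 ratio of the 25 genes was -1.37 in osteoblast-like nuclei, -1.08 in osteocyte-like, -0.98 in mural-like, -0.71 in chondrocyte-like, -0.07 in Limch1, 0.12 in tenocyte- or periosteum-like and 0.55 in reticular-like nuclei. Over all genes it was -0.41, -0.36, 0.07, -0.03, 0.05, -0.06 and 0.25 in the same order. With genes at 0 UMIs placed at the limit that 3 counts set, the medians of osteocyte-like and mural-like nuclei were -0.64 and -0.25, and the other 5 stayed the same. With each class centred on its all-gene median, osteocyte-like nuclei had 6 genes higher and 10 lower, osteoblast-like nuclei 1 and 11, reticular-like nuclei 7 and 5 and mural-like nuclei 3 and 13, and the counts of the other 3 classes were the same.

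The reticular-like class was itself uneven. It held 3 clusters of 344, 204 and 175 nuclei, numbered 1, 3 and 6. Cluster 1 was the shallowest, with 381324 UMIs in all, against 622902 in cluster 3 and 537679 in cluster 6. Its mean log2 score for reticular markers was also the lowest (2.66, against 3.815 and 3.4). In it 10 osteoblast markers were detected, against 7 and 5. The part of these differences in the levels below was not tested. Cluster 3, led by Ebf3, Pappa and Cxcl12, had Rspo3 at 292 CPM and Rspo2 at 233 CPM, against 134 and 74.4 CPM in cluster 6, led by Gm16685 and Nrg3, and 62.9 and 44.6 CPM in cluster 1, led by Pdzrn4 and Pappa. Summed over the family, R-spondins were at 525 CPM (470 to 585) in cluster 3, 208 CPM (172 to 251) in cluster 6 and 108 CPM (77.2 to 146) in cluster 1, and these intervals do not overlap. Sfrp4 was alike in clusters 6 and 3 (234 and 198 CPM) and lower in cluster 1 (102 CPM), while Wif1 was higher in cluster 3 (236 CPM) than in clusters 1 and 6 (110 and 96.7 CPM). Fzd5 was at 61.4 CPM in cluster 6, 44.95 CPM in cluster 3 and 21.0 CPM in cluster 1, and Fzd3 at 33.5, 11.2 and 7.87 CPM. Rspo3 was among the 10 leading genes of cluster 3 although it had been left out of the clustering.

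**Figure D3:**
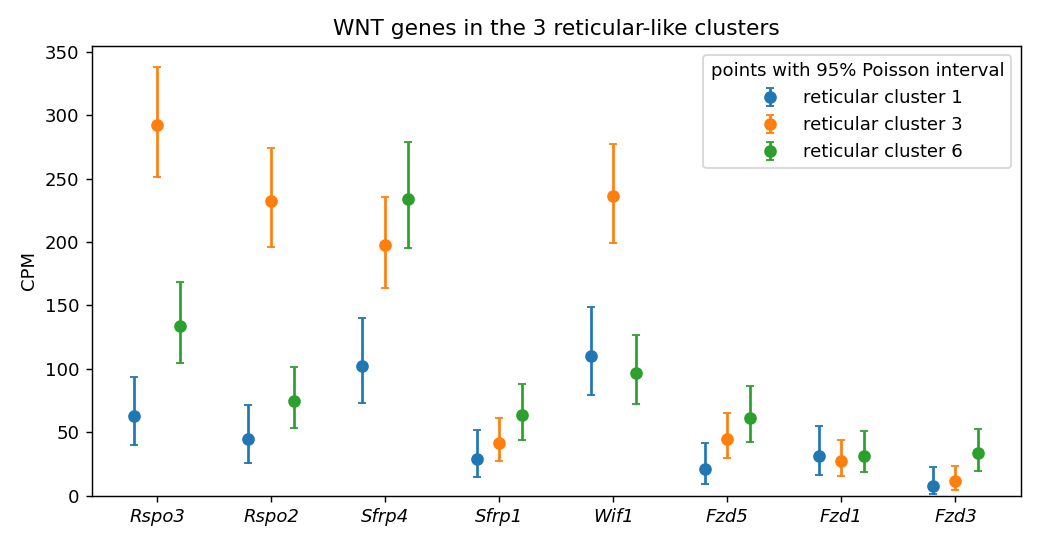
Level in CPM (y axis, points with 95% Poisson intervals) of 8 WNT genes (x axis) in the 3 reticular-like clusters. Cluster 3 has the highest Rspo3 and Rspo2 (292 and 233 CPM) and cluster 6 the highest Fzd5 (61.4 CPM).

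Accessibility was taken as the ATAC counts of all peaks over a gene and 3 kb upstream, per 1000000 counts in peaks (ATAC CPM). These counts are transposition sites, of which 1 DNA fragment can give a pair, so their intervals are too narrow. In the class where its RNA was highest, 20 of the 24 named genes were more accessible than in the rest of the stroma. Over the 25 genes with at least 20 UMIs this held for 19 (76%), against 66.6% of 10987 genes of the whole table. Of the named genes only Dkk1 differed by 2-fold or more, as 7.19% of all genes did (log2 ratio of 2.31 in osteocyte-like nuclei, at 26.0 ATAC CPM against 2.54 in reticular-like and 16.7 in osteoblast-like nuclei). Next came Wnt9a in tenocyte- or periosteum-like (0.94), Lrp5 in osteoblast-like (0.92), Sfrp1 (0.90) and Rspo3 (0.89) in reticular-like nuclei. The exceptions were Rspo2 and Fzd1 in reticular-like nuclei (-0.05 each), Fzd3 in the Limch1 cluster (-0.14) and Wnt4 in chondrocyte-like nuclei (-0.26). Counted by sign alone, the 20 include Lrp6 and Sfrp2 (0.01 each) and Lgr4 (0.12). The intervals of those genes and of Rspo2, Fzd1 and Fzd3 include 0. Rspo4, Lgr5 and Wnt9a had 7, 9 and 17 stromal UMIs, so their class of highest RNA is uncertain. The class of highest RNA was also the class of highest accessibility for 11 of 25 genes (44.0%), against 27.3% of 10987 genes over the whole table. The median Spearman correlation of RNA with accessibility over the 7 classes was 0.63 for the 25 and 0.21 for all genes, each a description over 7 points from shared nuclei. The median log2 range of accessibility over the classes was 1.23 for the 25 and 0.814 for all genes. The sets therefore differ in how much they vary, and the part of this in the gap was not tested.

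**Figure D4:**
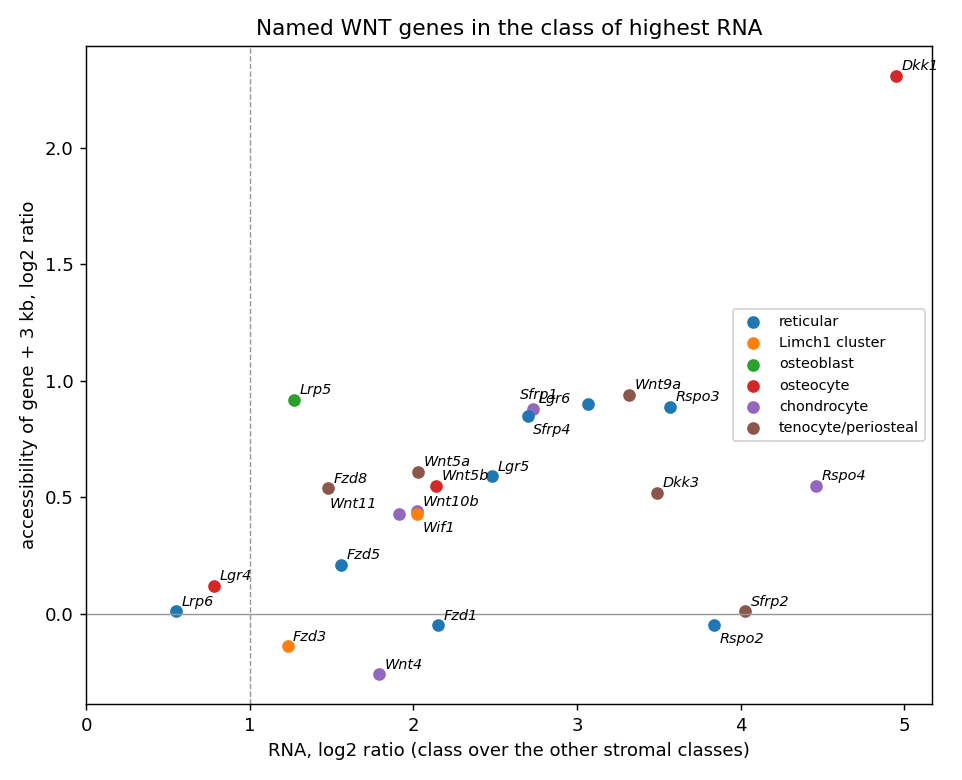
For each of the 24 named genes, in the class of its highest RNA (colour), the log2 ratio of RNA (x axis) and of accessibility over the gene and 3 kb upstream (y axis), class over the other stromal classes, with a dashed line at 2-fold RNA. Dkk1 lies apart at 4.95 and 2.31, and Rspo2 has a high RNA ratio (3.84) with no accessibility ratio (-0.05).

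Single peaks were read at each gene start and, for distal peaks, as the most class-biased peak within 50 kb of the gene, so that a high ratio of a distal peak is built in. Near the start of Dkk1 (chromosome 19, 30545863 to 30549665, minus strand, mm10) the peak had 19.4 ATAC CPM in osteocyte-like, 11.2 in osteoblast-like and 3.31 or less in the other 5 classes, against 0.967 in blood-like nuclei. A second peak 25.1 kb downstream of the start was at 18.3 ATAC CPM in osteocyte-like and 10.4 in osteoblast-like nuclei, 1.93 in chondrocyte-like, 0.757 in Limch1 nuclei and at 0 counts in reticular-like, tenocyte- or periosteum-like, mural-like and blood-like nuclei. Dkk1 RNA was at 150.5 CPM in osteocyte-like and 9.25 CPM in osteoblast-like nuclei, whereas both of these peaks were open in both classes. The 300-base promoter (250 bases before and 50 after the RefSeq start, build GRCm38.p6, chr19:30549447-30549746, minus strand) and the central 300 bases of the second peak (chr19:30524419-30524718, plus strand) are shown because both lay in chromatin that was open in osteocyte-like and osteoblast-like nuclei. The RefSeq start lies 169 bases downstream of the gene start in the annotation used for the peaks. Capitals mark matches to the TCF/LEF letters of WNT-responsive DNA (CTTTGAA, its variant CTTTGAT, the further variant CTTTGTA and last the variant CTTTGTT), to the RUNX letters TGTGGTT and to the AP-1 letters TGANTCA, all on both strands, to the EBF motif by its palindromic core, and to TATAAA on the gene's strand in the promoter.
Dkk1 promoter: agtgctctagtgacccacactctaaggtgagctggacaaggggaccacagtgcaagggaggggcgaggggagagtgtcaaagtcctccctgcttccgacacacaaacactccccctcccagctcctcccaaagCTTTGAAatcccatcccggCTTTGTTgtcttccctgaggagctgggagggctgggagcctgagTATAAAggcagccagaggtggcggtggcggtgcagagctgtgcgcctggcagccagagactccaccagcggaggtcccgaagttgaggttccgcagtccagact
Dkk1 peak: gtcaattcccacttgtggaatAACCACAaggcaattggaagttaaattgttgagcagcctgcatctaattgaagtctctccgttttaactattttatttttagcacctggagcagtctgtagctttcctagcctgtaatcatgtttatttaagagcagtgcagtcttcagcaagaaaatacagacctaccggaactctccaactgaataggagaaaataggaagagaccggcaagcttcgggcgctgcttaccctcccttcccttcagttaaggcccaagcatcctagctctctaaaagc
The promoter held CTTTGAA once and, closer to the start, CTTTGTT once, followed by one match to the TATAAA letters without overlap. The peak held the reverse complement of the RUNX letters once, as AACCACA. A TCF/LEF match was present in 16.9% of 32851 promoters of this length and in 20.5% of the centres of all 203502 peaks, a RUNX match in 5.27% and 13.6%, an AP-1 match in 7.81% and 20.4%, an EBF match in 0.904% and 1.5%, and TATAAA in 8.32% of promoters. Promoters were found for 30 of the 48 genes, and 5 of their 33 sequences (15.2%) held a TCF/LEF match, so the members did not stand apart from all promoters.

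For the ligands, a peak 15.8 kb upstream of Wnt4 was at 12.1 ATAC CPM in chondrocyte-like nuclei (44 counts) and at 1.32 or less in the other 6 classes and 0.161 in blood-like nuclei, while the peak at the Wnt4 start was open in all 7 classes (25.7 to 50.9 ATAC CPM). Wnt10b had a peak 25 kb upstream of its start at 29.9 ATAC CPM in osteocyte-like, 4.97 in osteoblast-like and 3.59 in chondrocyte-like nuclei, and at 1.19 or less in the others, against 1.93 in blood-like nuclei. Wnt10b RNA was not raised in osteocyte-like nuclei (2 UMIs). Wnt1, also among the genes described here, lies between this peak and Wnt10b. Accessibility over Wnt1 was highest in osteocyte-like nuclei (59.3 ATAC CPM, against 10.4 to 32.0 in the other classes), with 5 stromal UMIs of its RNA. The nearest gene start is that of B130046B21Rik at 3.84 kb, so the peak cannot be assigned to Wnt10b. Their central 300 bases, chr4:137261527-137261826 and chr15:98803036-98803335 (both plus strand), are shown because the first peak was highest in chondrocyte-like nuclei, where Wnt4 RNA was also highest. That RNA was spread over more classes. The second was highest in a class with little Wnt10b RNA.
Wnt4 peak: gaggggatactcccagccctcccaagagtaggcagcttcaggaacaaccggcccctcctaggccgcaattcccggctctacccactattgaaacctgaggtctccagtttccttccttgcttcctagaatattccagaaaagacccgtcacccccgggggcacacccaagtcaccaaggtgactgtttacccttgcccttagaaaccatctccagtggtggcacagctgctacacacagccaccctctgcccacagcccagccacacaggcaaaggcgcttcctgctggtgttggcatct
Wnt10b peak: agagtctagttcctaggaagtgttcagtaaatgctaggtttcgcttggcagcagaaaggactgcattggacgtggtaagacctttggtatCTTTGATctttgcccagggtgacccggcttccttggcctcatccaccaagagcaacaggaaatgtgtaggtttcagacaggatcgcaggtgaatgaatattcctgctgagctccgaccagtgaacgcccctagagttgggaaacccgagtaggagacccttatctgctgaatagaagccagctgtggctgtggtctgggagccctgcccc
The Wnt4 peak held none of the letters searched, and the Wnt10b peak held 1 TCF/LEF match, CTTTGAT.

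For the reticular-like class, the Rspo3 start peak was at 22.7 ATAC CPM in reticular-like nuclei, against 6.325 to 14.4 in the other 6 classes and 2.01 in blood-like nuclei. The Rspo2 start peak was open in 6 classes (4.35 to 8.24 ATAC CPM) and had 0 counts in osteocyte-like nuclei. A peak inside Rspo2, 43.4 kb from its start, had all of its 59 stromal counts in reticular-like nuclei (2.31 ATAC CPM, at least 20.9-fold above the other 6 classes) and 4 counts in blood-like nuclei. Downstream of Rspo3, 121 kb from its start, a peak was at 6.49 ATAC CPM in reticular-like, 2.76 in chondrocyte-like and 2.02 in Limch1 nuclei, with 0.485 or none in the others. A peak 25.9 kb upstream of Sfrp2 (chr3:83740260-83740559, central 300 bases, plus strand) had 383 counts in reticular-like nuclei (14.98 ATAC CPM), 6.26 ATAC CPM in tenocyte- or periosteum-like and 4.16 in Limch1 nuclei, and 1.38 or less in the others, whereas Sfrp2 RNA was higher in tenocyte- or periosteum-like nuclei (36.2 CPM) than in reticular-like nuclei (7.13 CPM). It is shown because RNA and peak are highest in different classes.
Sfrp2 peak: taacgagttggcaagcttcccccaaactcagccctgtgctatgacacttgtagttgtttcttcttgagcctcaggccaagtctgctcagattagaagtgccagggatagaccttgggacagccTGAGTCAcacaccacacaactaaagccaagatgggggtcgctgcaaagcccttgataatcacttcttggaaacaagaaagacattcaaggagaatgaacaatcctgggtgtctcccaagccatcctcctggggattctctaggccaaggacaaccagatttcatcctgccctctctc
It held 1 AP-1 match, TGAGTCA.

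Among receptors, a peak 45.7 kb upstream of the Lrp5 start was at 10.1 ATAC CPM in osteoblast-like nuclei (83 counts), 1.51 in Limch1 nuclei and 1.11 or less in the others, and the start peak was at 9.65 to 28.2 ATAC CPM in the 7 classes. In Lgr6, the start peak was at 24.4 ATAC CPM in osteocyte-like and 12.96 in chondrocyte-like nuclei, and a peak inside the gene, 15.6 kb from its start, at 24.8 in chondrocyte-like and 12.2 in osteocyte-like nuclei, where the other 5 classes were at 4.28 or less. At the starts of Fzd1, Fzd3, Fzd5 and Lrp6, the class of highest ratio was 1.20-fold to 1.47-fold above the rest of the stroma. Of 698 peaks within 50 kb of any of the 48 genes, 18.1% were at least 2-fold higher in reticular-like nuclei and 16.2% in tenocyte- or periosteum-like nuclei, against 18.6% and 12% of all peaks, with 7.16% to 19.3% in the other 5 classes, against 12.8% to 19% of all peaks.

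**Figure D5:**
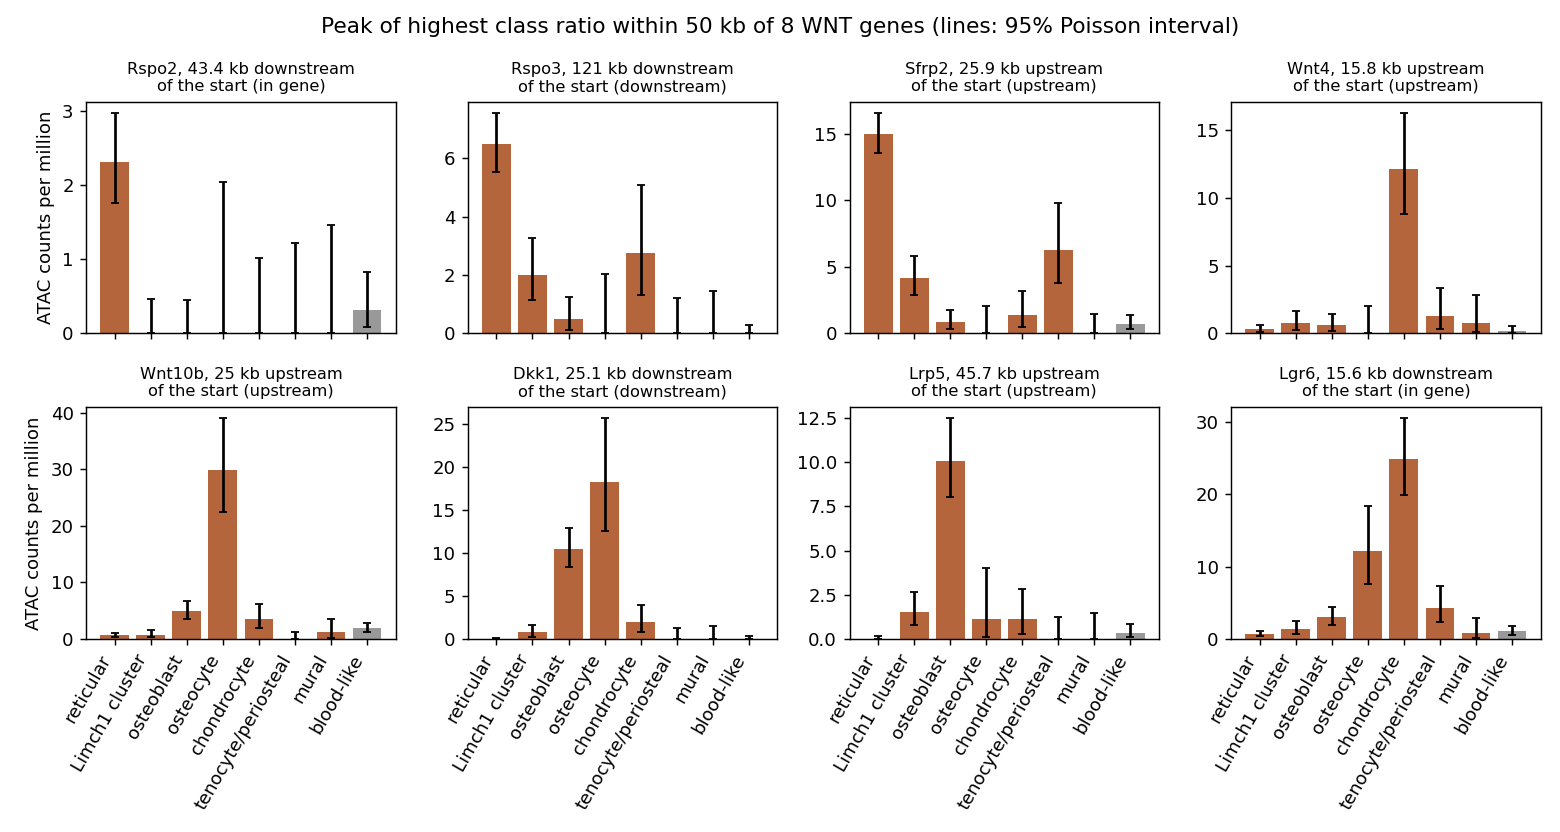
ATAC CPM (y axis, bars with 95% Poisson intervals) in 7 stromal classes and, in grey, blood-like nuclei (x axis) for the most class-biased peak within 50 kb of 8 WNT genes, with its distance from the gene start. The Rspo2 peak has counts in reticular-like nuclei and in blood-like nuclei only (2.31 and 0.322 ATAC CPM), the Wnt4 peak is at 12.1 in chondrocyte-like nuclei, and the Dkk1 peak is shared by osteocyte-like and osteoblast-like nuclei.

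Around these genes, 59 further pathway genes were read, and 50 had at least 20 UMIs. In reticular-like nuclei 11 of the 50 were at least 2-fold higher (22%, against 16.6% of all genes) and 7 lower (14%, against 11.1%). In osteoblast-like nuclei 4 were higher (8%, against 4.07%) and 15 lower (30%, against 25.8%), and in osteocyte-like nuclei 2 (4%, against 6.76%) and 20 (40%, against 29.3%). In chondrocyte-like nuclei there were 4 (8%, against 13.6%) and 13 (26%, against 18.6%). In tenocyte- or periosteum-like nuclei 5 were higher (10%, against 10.7%) and 8 lower (16%, against 18.3%). In mural-like nuclei there were 10 (20%, against 15.1%) and 7 (14%, against 16%), and in Limch1 nuclei 4 (8%, against 7.38%) and 1 (2%, against 11.1%). Wls, which carries WNT ligands to the cell surface, was at 237 CPM in the Limch1 cluster and 220 CPM in reticular-like nuclei but at 75.9 and 36.9 CPM in chondrocyte-like and osteocyte-like nuclei, the classes with the most ligand RNA, against 56.8 CPM in blood-like nuclei and 105.5 CPM in free RNA. Among other receptors, the glypican Gpc6 was at 1994 CPM in reticular-like and 1494 CPM in mural-like nuclei, against 181 CPM in osteoblast-like nuclei, Lrp4, which presents sclerostin, at 319 CPM in the Limch1 cluster and 15.1 to 159 CPM in the other classes, and Ryk at 193 CPM in osteocyte-like nuclei. Of further blockers, Igfbp4 was at 815 CPM in reticular-like nuclei and 208 CPM or less elsewhere, and Kremen1 at 65.4 CPM in the Limch1 cluster. Apcdd1 was at 30.2 CPM or less in all 7 classes.

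Inside the receiving cell, β-catenin RNA (Ctnnb1) lay between 123 and 232 CPM in all 7 stromal classes, and was at 119 CPM in blood-like nuclei and 152 CPM in free RNA. Gsk3b, the kinase that marks β-catenin for destruction, was at 431 CPM in chondrocyte-like nuclei and 105 to 191 CPM in the others, and Csnk1a1 at 526 CPM in mural-like nuclei with 286 CPM in blood-like nuclei. Of the nuclear partners, Tcf7l2 was at 449 CPM in osteocyte-like, 424 CPM in chondrocyte-like and 412 CPM in reticular-like nuclei and at 130 CPM in osteoblast-like nuclei. Tcf7l1 was at 148 CPM in reticular-like nuclei, and Tle3 at 43.5 to 71.2 CPM in all classes. The ubiquitin ligase Znrf3, which removes Frizzled proteins from the surface, was at 90.9 CPM in osteocyte-like and 17.4 CPM in mural-like nuclei, with 39.2 CPM in blood-like nuclei, and Rnf43 had 6 UMIs. Among genes that the pathway commonly induces, Myc was at 66.8 CPM in reticular-like nuclei with 58.9 CPM in free RNA, Nkd2 at 37.4 CPM in the Limch1 cluster and Ccnd1 at 34.8 CPM in mural-like nuclei with 42.4 CPM in blood-like nuclei. Axin2, chosen after its values were seen as the usual readout, had 23 stromal UMIs in all, 0 to 7 in each class (with 3.40 CPM in free RNA). By the 2-fold rule it was higher in Limch1 nuclei (4 UMIs, 7.47 CPM, 2.04 to 19.1) and mural-like nuclei (3 UMIs, 13.03 CPM, 2.69 to 38.1) and lower in osteocyte-like nuclei (0 UMIs). These calls rest on few UMIs. Of the planar polarity genes, Prickle1 was at 151 CPM in osteoblast-like nuclei, Prickle2 at 178 CPM and Daam2 at 326 CPM in mural-like nuclei.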

How the data were processed

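RNA and ATAC libraries came from the same nuclei, 1 of each. The authors deposited counts made with Cell Ranger ARC 2.0.0 per the file headers, on mm10: UMIs per gene and transposition counts per peak for 728634 barcodes, with no cell types. The peak list deposited on its own was not used. Nuclei had to reach 500 UMIs and 1000 ATAC counts. A limit of 20% on the mitochondrial share then removed 42.4% of 4663 barcodes. Scrublet marked 5 of 2684 nuclei (0.186%), too few to have worked, so the 58 highest scores were removed.

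The members and lists were chosen with earlier results of these data known. Nuclei were clustered with scanpy 1.11.5 and leidenalg 0.10.2 (3000 variable genes, 30 components, 30 neighbours, resolution 1), without the WNT members and 59 pathway genes. Clusters were named from marker lists by a rule set after the data were seen: a mean log2 marker score of at least 1.5, 3 detected markers and 2 among the 20 leading genes. The Limch1 cluster met a lower score of 0.5 for both osteoblast and reticular markers.

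Counts were summed per class and given as counts per 1000000 (CPM). Log2 ratios had 0.5 counts added to each side, and a gene was called at 2-fold with at least 20 UMIs. No test was made, since there was 1 library. The genes given in every class were the 6 of each role with the most UMIs over the stromal classes, and up to 3 per pathway list. Peaks were the one nearest to each gene start and, within 50 kb of the gene and with at least 50 counts, the one of highest class ratio. By gene position, 88.1% of 32158 genes matched GENCODE vM21. Sequences are from RefSeq, GRCm38.p6. Scripts were tested on simulated data. Alternatives changed the filters, the classes, the free RNA, the depth and the counts added. Those on weighting and scaling of the classes were chosen after seeing the data.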

Additional observations from a re-analysis of the deposited data

Results flagged for a closer look

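Wnt7b, a ligand of the β-catenin route, was at 35.3 CPM (18 UMIs) in an unnamed cluster of 181 nuclei led by Ttn and F13a1, which entered no comparison of classes. It was at 3.94 CPM or less in each of the 7 named stromal classes, 0.801 CPM in blood-like nuclei and 1.46 CPM in free RNA. Of all marker lists, the hypertrophic chondrocyte list scored highest in that unnamed cluster (5 of 6 detected). Mmp13 was among the cluster's leading genes, and 10 osteoblast markers were also detected there.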

How the results depend on the processing

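Of the 24 named genes, all 24 stayed higher in the class of their highest RNA with no mitochondrial limit, resolution 2, free RNA subtracted, 1000 UMIs per nucleus, mean per-nucleus CPM, more doublets removed, 2 counts added, and the 3 alternatives chosen after seeing the data. With at most 10% mitochondrial UMIs only 5 classes were found, and all 14 genes that could be compared stayed higher. With each nucleus classed on its own, 21 of 24 did. Of the 22 that were 2-fold higher, 16 stayed so with each nucleus classed on its own, 20 as a mean over nuclei, 21 with no limit, 21 with the other classes weighted alike and 22 under the other settings just named. At the 10% limit 9 of 12 did. The genes that did not stay higher with each nucleus classed on its own were Wnt4, Fzd8 and Wif1. Their log2 ratios were -0.94 in chondrocyte-like, -0.32 in tenocyte- or periosteum-like and -0.77 in the mixed nuclei that replaced the Limch1 cluster.

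Under the 10% limit, the members lower in reticular-like nuclei numbered 3, in Limch1 nuclei 6, in osteoblast-like nuclei 8 and in osteocyte-like nuclei 7, and those higher in osteoblast-like nuclei 0, since the log2 ratio of Lrp5 was 0.57. Without the limit, 6 were lower in Limch1 nuclei. With each nucleus classed on its own, 17 were higher and 0 lower in the mixed nuclei that replaced the Limch1 cluster. In that setting 2 were higher in osteocyte-like nuclei, 9 lower in tenocyte- or periosteum-like nuclei and 7 lower in mural-like nuclei. With the other classes weighted alike, 7 were lower in Limch1 nuclei. With 2 counts added, 8 were lower in osteocyte-like and 6 in mural-like nuclei, and with 50 UMIs for a call 1 was higher in mural-like nuclei.

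Summed ligands in chondrocyte-like nuclei were 348 CPM with no mitochondrial limit, 285 with single-nucleus classes, 484 with free RNA subtracted and 385 as a mean over nuclei. R-spondins in reticular-like nuclei were 477 CPM with free RNA subtracted and 255 as a mean over nuclei. Lgr receptors in osteocyte-like nuclei were 202 CPM at the 10% limit, 201 with no limit and 173 with single-nucleus classes. Fzd receptors in tenocyte- or periosteum-like nuclei were 80.3 CPM with single-nucleus classes, and Lrp5 and Lrp6 in osteoblast-like nuclei 149 CPM with free RNA subtracted. Blockers in Limch1 nuclei were 683 CPM at the 10% limit, 401 with no limit and 634 with free RNA subtracted. In the mixed nuclei of the single-nucleus classes they were 297 CPM. The cause was not tested. By an upper estimate, free RNA made up 11.9% to 40.6% of UMIs in the stromal classes. No paired analysis was possible because there was 1 library of each kind.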
